A study of Arabidopsis thaliana with 116 samples.

Results

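The 116 recombinant inbred lines of Arabidopsis thaliana were divided by the signal of 1 probe set, that of AT3G55470, a protein-coding gene near the end of chromosome 3. The groups were chosen by its own log2 values, as the division into a lower and an upper group with the smallest sum of squares within groups. It used every line of the series, with 54 upper lines and 62 lower lines. Col-0 and C24 were the parents, crossed in both directions, and each line carries the letter Q or R in its name. Which letter stands for which direction of the cross is not stated in the labels used here. Each line was represented by 1 array of RNA from 200 mg of developing seeds, taken from 8 siliques on each of 6 pooled plants at 10 to 11 days after flower opening. The labels name no treatment and give all lines the same growth conditions, and neither the upper nor the lower group was assigned to a parent here.

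A recombinant inbred line is fixed, at nearly every position of the genome, for the allele of one parent or of the other. Alleles that lie close together on a chromosome are mostly inherited together, so a split of the lines at 1 gene also splits them, less and less sharply with distance, at its neighbours. A gene whose signal differs between the groups and lies beside the splitting gene is called local or linked, and one on another chromosome is called unlinked or distant. On a short-oligonucleotide array, a sequence difference between the parents under the probes also changes the signal. A difference in transcript level and a difference in probe match cannot be told apart from the probe set values used here. In RNA from whole seeds, fewer cells of a type and less RNA per cell cannot be told apart either.

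The 62 lower lines had AT3G55470 signals with a lowest value of 5.26, a median of 5.91 and a highest value of 6.37 log2. The 54 upper lines had a lowest value of 6.91, a median of 7.90 and a highest value of 8.54. The groups did not overlap because the split itself was made on these values, and the figures are a description with no test. Between the highest lower line and the lowest upper line lay a gap of 0.545, with the threshold at 6.64. The lower lines closest to it stood at 6.37, 6.34 and 6.32, and the upper lines closest to it at 6.91, 6.99 and 7.15. The means were 5.87 ± 0.276 (SD, n = 62) and 7.85 ± 0.352 (SD, n = 54), a difference of 1.97 on the log2 scale. Among the 59 Q lines 26 were upper and 33 lower, and among the 57 R lines 28 were upper and 29 lower.

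**Figure D1:**
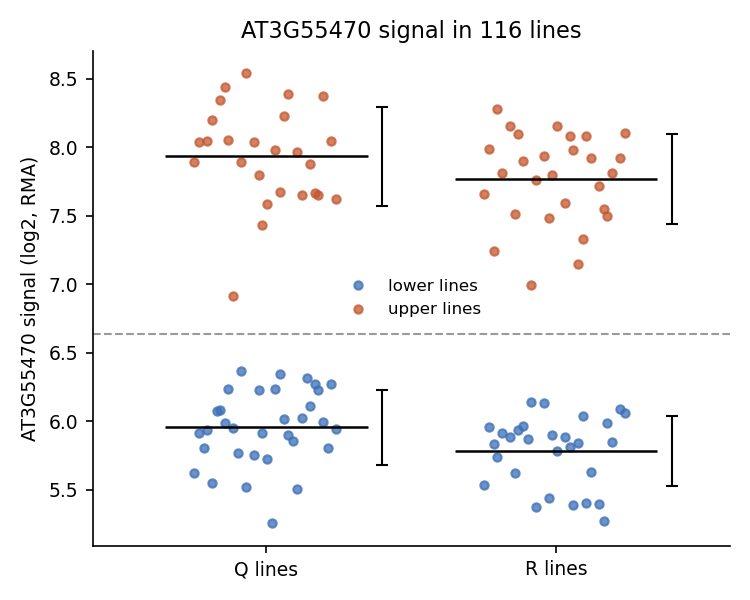
Signal of AT3G55470 (log2, RMA) in each of the 116 lines, by the letter of the line. Points are lines, horizontal bars are group means, error bars are SD and the dashed line is the threshold of 6.64. In both letters the lower lines reach at most 6.37 and the upper lines start at 6.91.

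The label places the gene at the end of chromosome 3, and the gene order bears this out in part. AT3G55470 was gene 6571 of the 7624 annotated genes of the chromosome, 86.2% of the way along it, with 1053 genes between it and the end. Distances below are counted in places in this gene order. Signals of some genes typical of filling seeds were high in both groups, while others were much lower. PAP85, a vicilin-like storage protein, had a mean of 13.29 in lower and 13.30 in upper lines, and OLEO3, an oleosin of oil bodies, had means of 13.24 and 13.26. AT2G18540, also listed as a storage protein, had means of 5.34 and 5.52, and AT5G16460, listed for oil bodies, of 5.97 and 6.14. Of the markers listed for the silique wall none had a probe set with a single named gene, so a contribution of that tissue was not measured.

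The arrays themselves were much alike. Array medians lay between 5.84 and 5.99 log2, and the median correlation of an array with the others lay between 0.973 and 0.988. RNA quality, read from how far the 3' control probes exceeded the 5' ones in log2, was 1.03 ± 0.269 (SD, n = 62) in lower lines and 1.09 ± 0.286 (SD, n = 54) in upper lines. In a two-sided permutation test this difference gave p = 0.275, adjusted over 5 array measures to 0.344. The smallest p of the 5 measures was 0.0844, adjusted to 0.215, for the second principal component.

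Across the array, 935 of 22745 tested probe sets, 4.11%, differed between upper and lower lines at an adjusted p under 0.05 in limma with the letter as covariate. Of all tested probe sets 2.33% were higher and 1.78% lower in upper lines. The calls were concentrated on chromosome 3 around AT3G55470. Of 992 probe sets of linked genes, those within 1600 places, 234 passed, which is 23.6%, with 47.4% of the calls higher and 52.6% lower in upper lines. Farther along the same chromosome 37 of 1753 passed, or 2.11%. On chromosomes 1, 2, 4 and 5 together 223 of 10621 passed, or 2.1%. The median absolute difference of the called probe sets was 0.208 log2 among linked genes and 0.144 on the other chromosomes, and the medians over all probe sets of these classes were 0.045 and 0.027.

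The share that passed fell with distance up to the border of the window and then dropped. Within 100 places 22 of 66 probe sets passed, or 33.3%, and between 101 and 200 places 27 of 84, or 32.1%. The share was 26.5% between 201 and 400 places, 21.6% between 401 and 800, and 20.4% between 801 and 1600. From 1601 to 3200 places it was 1.16%, with 5 of 431, and beyond that 2.42%, with 32 of 1322. The other chromosomes were close to one another, at 1.8% on chromosome 1, 2.32% on chromosome 2, 2.04% on chromosome 4 and 2.33% on chromosome 5. All of these shares except those of the linked bins were below the 4.11% of the whole array. Probe sets without a gene name in the annotation used here, which were not placed, passed in 424 of 8730 cases, or 4.86%.

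**Figure D2:**
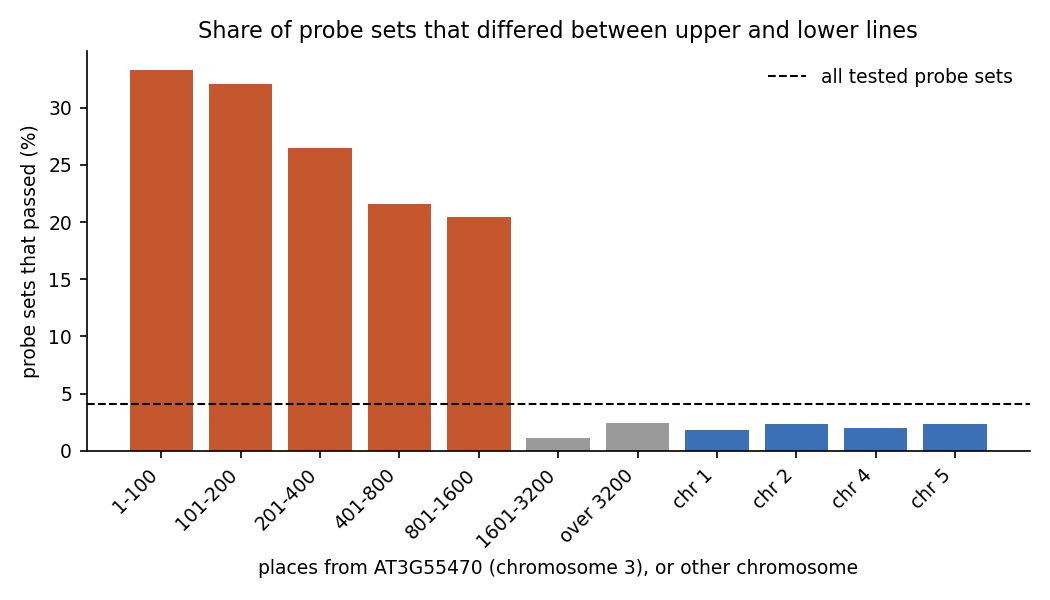
Share of probe sets (%) with an adjusted p under 0.05, by distance in places from AT3G55470 on chromosome 3 and for the other chromosomes. The bars fall from 33.3% within 100 places to 20.4% between 801 and 1600 places and stay at or below 2.42% elsewhere. The dashed line is the 4.11% of all tested probe sets.

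**Figure D3:**
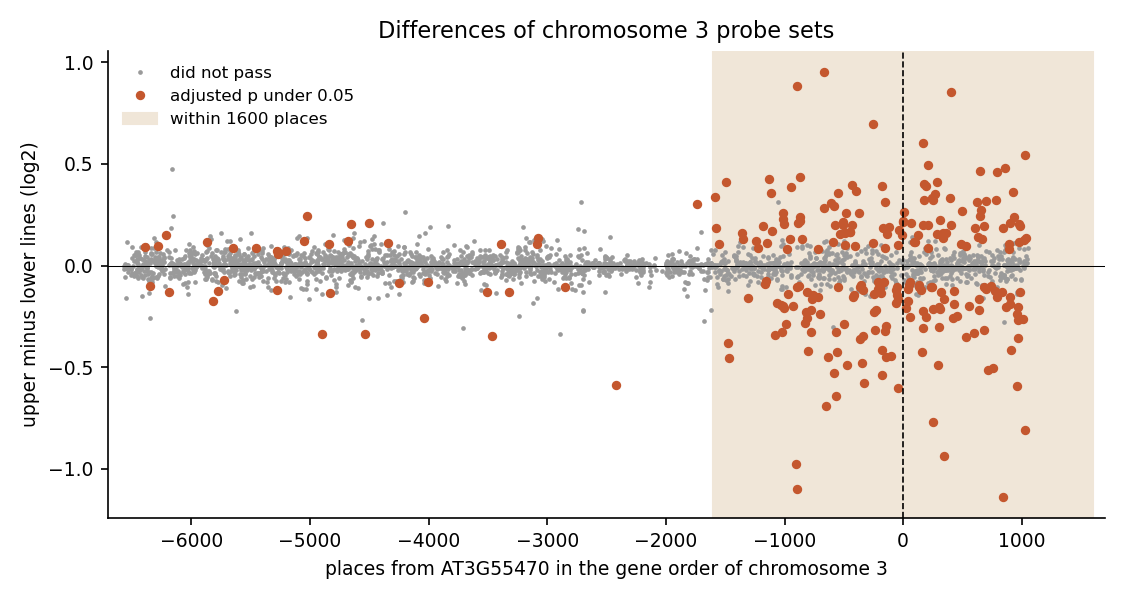
Difference of each chromosome 3 probe set between upper and lower lines (log2) against its place in gene order, with AT3G55470 at 0. Coloured points passed at an adjusted p under 0.05 and the shaded band is the window of 1600 places. Inside the band differences reach -1.14 and 0.95, and they run in both directions.

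Not every neighbour of AT3G55470 passed. Of the 10 nearest genes with a probe set on each side, all within 40 places, 6 before it and 3 after it passed. TPI, triosephosphate isomerase of glycolysis, lay 3 places before it and had a difference of 0.028 ± 0.021 (SE) with an adjusted p of 0.535. Its lower lines ran from 11.60 over a median of 11.91 to 12.24 and its upper lines from 11.70 over 11.97 to 12.24, nearly the same range. With 10 principal components of the values in the model it passed, with a difference of 0.064 and an adjusted p of 0.0181. EXPA16, an expansin of the cell wall, lay 5 places after AT3G55470, with a difference of -0.012 and an adjusted p of 0.88. EXPA16 was dim, with medians of 3.87 in lower and 3.88 in upper lines. AT3G55670, AT3G55190 and AT3G55300 did not pass either and were also dim, with lower-line medians of 2.96, 3.35 and 3.45. Dim signals are compressed, so a missing call says little for these genes. AT3G55180, with a lower-line median of 3.89, nevertheless passed. RBL, 6 places after AT3G55470, had a difference of -0.07 and an adjusted p of 0.451.

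The 9 neighbours that passed included genes in both directions. AT3G55430, AT3G55420 and AT3G55410, which lay 4, 5 and 6 places before AT3G55470, were higher in upper lines by 0.22, 0.21 and 0.15, with adjusted p-values of at most 8.23e-05. AT3G55180, 38 places before, was higher by 0.17, while AT3G55170 and AT3G55160 beside it had differences of -0.60 and -0.16. On the other side AT3G55520 was higher by 0.27, and AT3G55600 and AT3G55680 had differences of -0.21 and -0.18. With 10 principal components in the model, the calls of AT3G55420, AT3G55160 and AT3G55680 were lost, with adjusted p-values of 0.382, 0.133 and 0.0587.

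The gene that followed the split most closely among linked genes was GIS, 346 places after AT3G55470, a zinc finger regulator of trichome formation. Its signal ran from 6.96 over a median of 7.68 to 8.36 in lower lines and from 6.31 over 6.74 to 7.75 in upper lines. The difference was -0.94 ± 0.051 (SE), 1.92-fold lower in upper lines, with an adjusted p of 6.64e-32. The groups overlapped, although 45 upper lines lay outside the range of the lower lines and only 5 of 116 lines lay on the other group's side of the midpoint between the means. The split accounted for 74.3% of the variance of GIS left after the letter. Within Q lines the difference was -0.95 and within R lines -0.92.

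AT3G57380, 254 places after AT3G55470, was low in both groups and lower in upper lines. Its lower lines ran from 3.91 over 4.75 to 5.96 and its upper lines from 3.71 over 3.92 to 4.44, an overlapping pair of ranges. The difference was -0.77 ± 0.048 (SE) with an adjusted p of 2.63e-27. AT3G55170, AT3G52710, AT3G50880, AT3G56680, AT3G51050, AT3G54040, AT3G52570, AT3G54250, AT3G59000 and AT3G48410 were also among the 12 linked genes with the smallest p that were lower in upper lines, with differences from -0.98 in AT3G48410 to -0.25 in AT3G59000.

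In the other direction, AT3G56890, AT3G56820 and AT3G56730 lay within 200 places after AT3G55470 and were all higher in upper lines, by 0.39, 0.32 and 0.60. AT3G56730 ran from 4.96 over 5.59 to 6.09 in lower lines and from 5.73 over 6.20 to 6.73 in upper lines, so that 42 upper lines lay outside the lower range. Its adjusted p was 8.88e-23. AT3G61980, farther away at 855 places, was higher by 0.48 with an adjusted p of 3.31e-22. AT3G58540 was higher by 0.85, AT3G53370 by 0.69, AT3G48420 by 0.88, AT3G57010 by 0.49 and AT3G60520 by 0.47, and AT3G54000 and AT3G56810 by 0.39 and 0.40.

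IRX15, which takes part in the synthesis of xylan for secondary cell walls, lay 669 places before AT3G55470 and had the largest rise among the linked genes with 1 name. In lower lines its signal ran from 3.86 over a median of 4.31 to 5.68, and in upper lines from 4.23 over 5.33 to 6.31. The difference was 0.95 ± 0.081 (SE), 1.94-fold, with an adjusted p of 1.25e-18. Within each group a few lines had values typical of the other, and 14 of 116 lines lay past the midpoint. The largest fall, in CYP78A9, a cytochrome P450 that promotes the growth of fruits and seeds, was -1.14 ± 0.171 (SE) with an adjusted p of 1.46e-07. CYP78A9 ran from 7.32 over 10.23 to 11.67 in lower lines and from 7.27 over 8.83 to 11.02 in upper lines. It was far more variable than GIS, with 28 lines past the midpoint. CYP78A9 and the linked genes of the next paragraph were outside the rule for named genes and were chosen for their symbols after their values were seen.

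Several linked genes with known roles were shifted. Higher in upper lines were AGL18, a MADS domain factor, and BRH1, a RING finger protein responsive to brassinosteroids, both by 0.32. PYE, a bHLH regulator of the response to iron shortage, was higher by 0.26, and PGL34, a plastoglobulin, by 0.16. The differences of PAP20, a purple acid phosphatase, of ATOEP16-4, a protein of the outer plastid envelope, and of BGLU16, a beta-glucosidase, were -0.58, -0.36 and -0.33. TON1B, which takes part in placing the division plane of cells, had a difference of -0.12. Adjusted p-values of these 8 genes were at most 0.000243. The call of PYE was lost with 10 principal components in the model, at an adjusted p of 0.274.

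**Figure D4:**
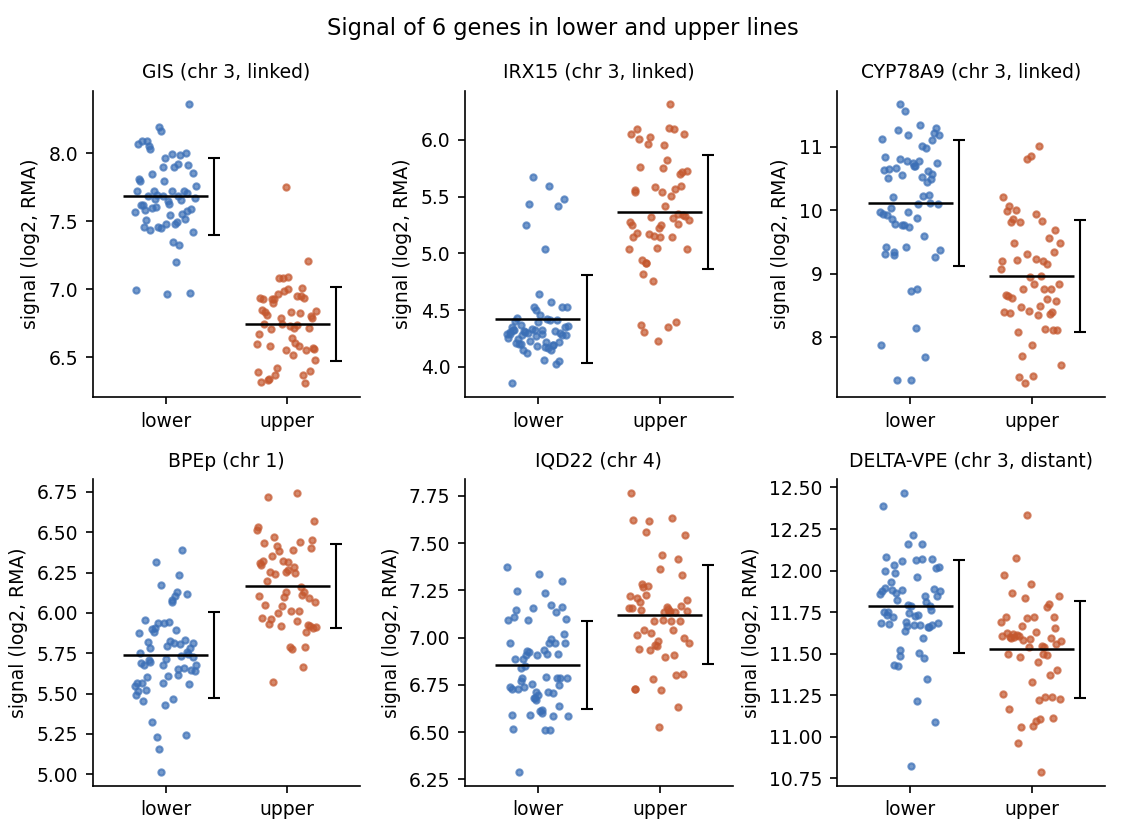
Signal (log2, RMA) of 6 genes in the 62 lower and 54 upper lines. Points are lines, horizontal bars are means and error bars are SD. GIS and IRX15 separate most of the lines, with 5 and 14 of 116 lines past the midpoint of the means, while the other 4 genes overlap widely.

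Other genes on chromosome 3 also had 2 separate modes, at least 1 log2 and 4 within-mode SD apart with at least 20% of lines in the smaller one, and allowed a look at where lines switched between the groups. Together with AT3G55470 there were 22 such genes. Split at IRX15, 14 of 116 lines, 12.1%, fell on the other side than at AT3G55470, and the same number did at AT3G63340, 1027 places after it. At AT3G48410 and AT3G48420, 899 and 897 places before, the shares were 15.5% and 17.2%. At AT3G44630, 1472 places before, the share was 34.5%, and at AT3G19520 and AT3G04200, far away on the chromosome, it was 49.1%. Splits at 13 genes of other chromosomes differed from that at AT3G55470 in 42.2% to 49.1% of lines. Each split was matched to that at AT3G55470 in the direction with fewer differing lines, which caps all of these shares. At AT3G63340, AT3G48410, AT3G44630 and AT3G19520 this paired the lower mode with the upper lines.

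On other chromosomes the gene with the smallest p was BPEp on chromosome 1, a bHLH factor that limits petal growth. Its lower lines ran from 5.02 over a median of 5.73 to 6.39 and its upper lines from 5.57 over 6.15 to 6.74. Ranges overlapped, with 12 upper lines above the highest lower line and 23 of 116 lines past the midpoint. The difference was 0.43 ± 0.048 (SE), 1.35-fold, with an adjusted p of 1.95e-12. The split accounted for 41.1% of the variance left after the letter. BPEp was higher by 0.45 within Q lines and by 0.41 within R lines. It passed under all 10 alternatives of the fit.

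Shares of variance are given here after the letter was fitted. BPEp was set against the splits at the other genes of chromosome 3 with separate modes, as a description. The split at IRX15 accounted for 22.4% of its variance and that at AT3G63340 for 24.7%, against 41.1% at AT3G55470, which lies between them. At AT3G48410 the share was 15.3%, and at AT3G44630 it was 0.9%. IQD22 and P1R1 were also highest at AT3G55470. For IQD22 the shares were 23.4% at AT3G55470, 17.6% at IRX15 and 15.6% at AT3G63340, and for P1R1 they were 20.2%, 13% and 15.8%. The linked CYP78A9, chosen otherwise, had 27.6% at AT3G55470 and 40.9% at AT3G63340. It lies 841 places after AT3G55470, and thus closer to AT3G63340. BPEp, IQD22 and P1R1 were chosen for their small p at the split of AT3G55470, which favours a highest share there, so these shares do not locate them. The shares also come from the same 116 lines and overlapping splits.

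**Figure D5:**
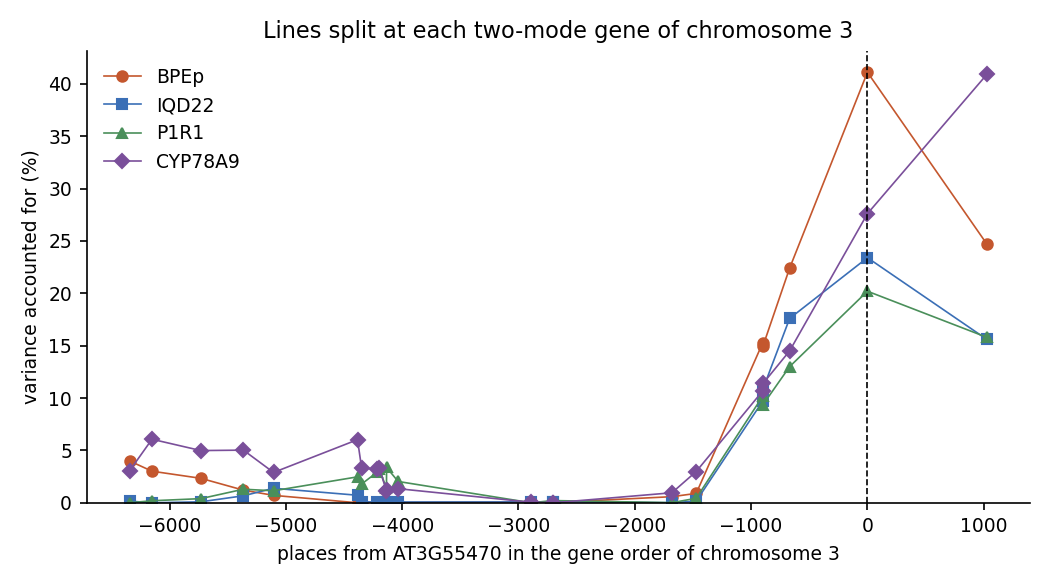
Share of variance (%) of 4 genes accounted for by splitting the lines at each of 22 chromosome 3 genes with separate modes. The share is of the variance left after the letter and is drawn against the place of the splitting gene from AT3G55470. BPEp, IQD22 and P1R1 are highest at AT3G55470, with 41.1%, 23.4% and 20.2%, and CYP78A9 is highest at AT3G63340, with 40.9%.

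IQD22 on chromosome 4, one of the calmodulin-binding IQD proteins, came next. It ran from 6.29 over 6.81 to 7.38 in lower lines and from 6.53 over 7.14 to 7.77 in upper lines, with a difference of 0.27 ± 0.045 (SE) and an adjusted p of 4.08e-06. P1R1 on chromosome 5 was dim and variable, from 3.51 over 4.40 to 5.40 in lower lines and from 3.80 over 4.83 to 6.47 in upper lines. It was higher by 0.50 ± 0.093 (SE) with an adjusted p of 3.35e-05. Both genes overlapped widely between the groups, with 32 and 37 lines past the midpoint. BGLU40, a beta-glucosidase, was higher by 0.20, and AOP3, a dioxygenase of glucosinolate side chains, by 0.15. AT1G28030, AT5G19250, AT1G56710, AT4G01330, AT5G22850, AT1G80380 and AT1G78170 made up the rest of the 12 higher genes, with differences between 0.13 and 0.22.

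The 12 genes on other chromosomes with the smallest p that were lower in upper lines had differences between -0.28 and -0.11. The first, AT2G05120, ran from 4.31 over 4.70 to 5.05 in lower lines and from 4.21 over 4.57 to 5.06 in upper lines. Its difference was -0.14 ± 0.03 (SE) with an adjusted p of 0.000426, and 35 lines lay past the midpoint. AT5G11230 and AT2G17240 had differences of -0.28 and -0.26, and scpl35, a serine carboxypeptidase-like protein, of -0.23. The remaining genes, AT4G19980, AT5G57500, AT4G29030, AT2G41040, AT2G37190, AT5G44770, AT5G48060 and AT2G21130, lay between -0.19 and -0.11.

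Among the 223 calls on other chromosomes 160 were higher and 63 lower in upper lines, which is 71.7% higher. The share of calls that were higher was 55.2% when each array's median was subtracted and 55.1% with 10 principal components in the model. In the other fits, those within each letter included, it lay between 64.3% and 72.8%. The number of calls stayed close to 223 with the components, at 243, but only 22 of the 223 probe sets, 9.87%, were among them, against 73.9% of the 234 linked ones. The 10 components held 43% of the variance of the split itself. They also held a median of 54.7% of the variance of the called probe sets on other chromosomes, against 37.2% of all probe sets there. For linked calls the median was 41.5%. Of the 12 higher and 12 lower genes named above, BPEp, P1R1, AT2G05120 and AT4G29030 passed in every alternative that tested them. The calls of the other 20 were lost with the components, at adjusted p-values from 0.063 to 0.89, which includes IQD22 at 0.187, BGLU40 at 0.805 and AOP3 at 0.214. That of AT5G48060 was also lost with 13 markers of other chromosomes as covariates.

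Far away on chromosome 3 the smallest p belonged to DELTA-VPE, a vacuolar processing enzyme of the seed coat, 4043 places before AT3G55470. It was abundant, from 10.82 over 11.79 to 12.47 in lower lines and from 10.79 over 11.58 to 12.33 in upper lines. The difference was -0.26 ± 0.053 (SE) with an adjusted p of 0.000266, and the ranges were nearly the same. AT3G25260 and AT3G13900 had differences of -0.13 and -0.34, and AT3G26950 and AT3G09850 were higher by 0.13 and 0.085. AT3G25260 passed in all 10 alternatives. The calls of the other 4 were lost with 10 principal components, at adjusted p-values from 0.17 to 0.621. No plastid gene of 69 and no mitochondrial gene of 18 passed in limma, with 10 and 5, or 14.5% and 27.8%, at an unadjusted p under 0.05, against 16.7% of all probe sets. The median difference was -0.084 over the plastid and 0.041 over the mitochondrial probe sets, against 0.0035 over all, and the median absolute differences were 0.086 and 0.059, against 0.03.

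The 12 lists of genes of seed development and metabolism had 47 genes with a probe set of 1 name. Of these 47, 10 passed, or 21.3%, against the 4.11% of the array, with 3 of them among the linked genes. The lists were drawn up with earlier results of these data known, so the share is a description. Of 13 listed storage proteins 5 were measured. AT2G18540 was higher by 0.18. The other 4, PAP85 among them, were nearly level, with differences of 0.0068 to 0.044, and did not pass. None of the 4 oil body genes passed, with a median difference of 0.048. In fatty acid synthesis FATB, the thioesterase that releases saturated fatty acids, was higher by 0.12, and FaTA had a difference of 0.065 that did not pass. The calls of AT2G18540 and FATB were lost with 10 principal components, at adjusted p-values of 0.595 and 0.334. Both were also lost with the letter left out of the model, and that of FATB without the 3 arrays of lowest correlation.

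Both measured maturation regulators, of 13 listed, passed, in opposite directions. EEL, a bZIP factor of late maturation, was higher by 0.13 with an adjusted p of 0.00937. BZIP53, a bZIP activator of maturation genes that is itself linked, 905 places away, had a difference of -0.19 with an adjusted p of 7.97e-05. Of 7 late embryogenesis abundant genes LEA passed, higher by 0.18, and the median of the 7 was 0.003. With 10 principal components the differences of EEL and LEA turned to -0.014 and -0.016 and their calls were lost, at adjusted p-values of 0.815 and 0.87. The components held 81.3% of the variance of EEL and 76.9% of that of LEA.

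Of 4 measured seed coat genes, from a list of 21, 2 passed, both lower in upper lines. BAN, the anthocyanidin reductase of proanthocyanidin synthesis, ran from 7.75 over 8.84 to 10.16 in lower lines and from 7.77 over 8.53 to 9.33 in upper lines. Its difference was -0.27 ± 0.073 (SE) with an adjusted p of 0.0127, and the groups overlapped almost entirely. The linked AT3G50990 had a difference of -0.64, while DFR, an earlier enzyme of the same pathway, had -0.17 and ARA12 -0.001, and neither passed. The call of BAN was lost with 10 principal components, at an adjusted p of 0.202. The 3 measured endosperm genes, of 10 listed, were AGL62, IKU2 and AGL80. They had differences between -0.017 and 0.0076 and did not pass. AGL62 and IKU2 were dim, with lower-line means of 3.23 and 4.35, against 7.49 for AGL80.

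In the remaining lists few members passed. Of 5 glucosinolate genes AOP3 was higher and the linked transporter gene GTR1 had a difference of -0.14 with an adjusted p of 0.0103, and the median was 0.0028. Of 8 genes of C2 domain proteins AT5G37740 passed, higher by 0.18, and its call was lost with 10 principal components at an adjusted p of 0.3. The call was also lost without the 3 arrays of lowest correlation. None of 4 photosynthesis genes passed, where the median was -0.038. The 3 cell cycle genes AUR1, AUR2 and PRL had differences of -0.14, -0.049 and -0.15 and did not pass either.

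The comparison was repeated within each letter. All 234 linked calls, all 37 distant calls on chromosome 3 and all 223 calls on other chromosomes had the same sign in Q lines as in R lines, the sign being part of what chose them. In Q lines alone 1.47% of all probe sets passed and in R lines alone 2.53%. Of the linked probe sets 140 passed in Q lines, 159 in R lines and 102 in both, all with the same sign. On other chromosomes 29 passed in Q lines, 112 in R lines and 3 in both. No probe set of 22745, that is 0%, had an interaction with the letter at an adjusted p under 0.05 in limma, where 1862 had an unadjusted p under 0.05 and the smallest adjusted p was 0.312. The 5 smallest interaction p-values belonged to AT1G42420, AT3G13440, AT1G55050, AT2G14350 and the plastid gene psaB, a core protein of photosystem I, whose difference was 0.15 in Q lines and -0.18 in R lines.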

How the data were processed

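RNA from developing seeds of 116 lines was measured on 1 Affymetrix array per line. The authors deposited log2 signals of 22810 probe sets. RMA made them, according to the submitters' processing notes. Its version, the genome build and scan dates: not given in the sources used here. The method gives arrays a common distribution, so differences in overall RNA amount are removed, and it compresses dim signals. The 64 array controls and AT3G55470 were left out, leaving 22745 tested probe sets.

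From the 1-gene probe sets of the annotation used here, genes were placed in the gene order of a RefSeq table of assembly TAIR10.1; no coordinates were used. The upper against lower comparison used limma 3.58.1 (R 4.3.3) on all lines with the letter as covariate, and p-values were adjusted by Benjamini and Hochberg's method over all 22745. The fit was tested on simulated data with independent noise for each probe set, which did not cover variation shared between probe sets. The split, the members and the lists were chosen with earlier results of these data known. Named genes were the 10 nearest on each side, the 12 smallest p in each direction among linked genes and on other chromosomes, the 5 smallest far away on chromosome 3, the called list members and the 5 smallest interaction p-values; others are said to be added. For a list gene with several probe sets, the one with the highest mean was taken. Percentages of variance for a split of the lines are shares of the variance left after the letter was fitted. Array measures were compared with 100000 two-sided permutations. One array stands for a line, so p-values measure the spread between lines, and the number of arrays limits the precision. Alternatives left out or added covariates, filtered or rescaled the signals, left out lines or used the continuous signal of AT3G55470; fits within letters, with 3 chromosome 3 markers and the count far away on chromosome 3 were added after seeing the data. Python 3.11.15, numpy 2.4.6, pandas 2.3.3, scipy 1.17.1 and matplotlib 3.10.9 were used for tables, permutations and plots.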

Additional observations from a re-analysis of the deposited data

How the results depend on the processing

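Counts of linked calls lay between 209 and 275 over 10 alternative fits and were 159, 239 and 271 with windows of 800 places, 3200 places and all of chromosome 3, against 234. They were 140 in Q lines and 159 in R lines alone. Calls on other chromosomes, 223, were 391 without the 12 lines nearest the threshold, 694 with the continuous signal, 29 in Q lines and 112 in R lines alone, and within 1.5 times of 223 otherwise. Distant calls on chromosome 3, 37, were 66, 131, 5 and 19 in these fits, 24 without the 3 arrays of lowest correlation and 65 with 3 chromosome 3 markers as covariates. The causes were not tested. Interaction calls were 0 in all 9 alternatives. In every alternative that tested them, 160 of 234 linked, 13 of 223 unlinked and 2 of 37 distant calls passed with the same sign. With 10 principal components, 5 of 16 named differences that did not pass and 12 of 121 that passed changed sign, the latter being HON4 to -0.042, OBE1 to -0.027, UGT76E11 to -0.0201, AR791 to -0.049, LEA to -0.016, EEL to -0.014, GLX2-4 to -0.049, TRM24 to -0.0902, TET15 to -0.12 with an adjusted p of 0.0455, UBP18 to -0.0103, CHR42 to -0.015 and GH9B5 to 0.031. No paired analysis was possible because each line is its own genotype with 1 array, and the labels do not say that a number found in both a Q and an R line ties these lines together. Arrays of the parents were not analysed here, 8730 probe sets had no gene name and 1 array per line leaves no replicate within a line.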

Other observations

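Some genes outside the rule for named genes were singled out after their values were seen. AT3G57450, whose probe set was not placed by the gene table used here, had the largest difference of the probe sets with 1 name. Its locus number falls between those of AT3G57440 and AT3G57460, linked genes 263 and 265 places after AT3G55470. AT3G57450 ran from 8.60 over a median of 10.72 to 12.32 in lower lines and from 8.28 over 9.52 to 10.07 in upper lines. The difference was -1.21 ± 0.082 (SE) with an adjusted p of 4.55e-25 in limma, and 7 of 116 lines lay past the midpoint. Among probe sets without a gene name the largest absolute difference was 2.83 log2.

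Genes on other chromosomes that passed in every alternative that tested them were BPEp, P1R1, AT2G05120, AT4G29030, AT4G15700, AT2G39750, AT5G14860, AT1G08280, AT1G15800, COR47, AT1G52660, AT5G48460 and AT1G72030. AT4G15700 was dim, with means of 3.21 in lower and 3.28 in upper lines. COR47, a dehydrin induced by cold and drought, had a difference of -0.30 with an adjusted p of 0.0125. AT1G52660 was higher by 0.37 in upper lines with an adjusted p of 0.0141, and AT1G08280 had a difference of -0.24 with an adjusted p of 0.00835.

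Among genes with symbols on other chromosomes, YUC4, a flavin monooxygenase of auxin synthesis, was higher by 0.18, and LEA4-5, a late embryogenesis abundant protein, by 0.24. GH9C1 and GH9B5, both endoglucanases of the same family, had differences of -0.48 and -0.27. The calls of these 4 genes were lost with 10 principal components in the model, where the difference of GH9B5 turned to 0.031. In all, the call of LEA4-5 was lost in 4 of 10 alternatives and that of GH9B5 in 3. On chromosome 3, 2418 places before AT3G55470, QQS, a gene that affects starch content in leaves, had a difference of -0.59 with an adjusted p of 0.0463. The call of QQS was lost in 6 of 10 alternatives, with adjusted p-values up to 0.474.

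The TRM proteins share a motif that recruits TON1, and 4 of 15 measured TRM genes passed, against 4.11% of all probe sets. TRM18, TRM24 and TRM25, which are not linked, were higher by 0.071, 0.20 and 0.20, and the linked TRM19 had a difference of -0.22. TRM18 was dim, with means of 3.54 in lower and 3.61 in upper lines, and its call was also lost with array medians subtracted. The calls of TRM24 and TRM25 were also lost without the 3 arrays of lowest correlation. That of TRM24 was lost with 13 markers of other chromosomes as covariates too. With 10 principal components the calls of the 3 unlinked genes were lost and the difference of TRM24 turned to -0.09. The median of the 15 was 0.03, and the family was chosen after its members were seen among the calls. Of 15 IQD genes 2 passed, of 47 UGT genes 3, of 22 TBL genes 2, of 14 BZIP genes 3 and of 20 BGLU genes 2. These families were also added after values were seen, so their counts are a description. Among the measured genes 2 IQD, 5 UGT, 1 TBL, 3 BZIP and 2 BGLU genes were linked. Of all linked probe sets 23.6% passed, against 4.11% of the array.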
